A study of Trametes cinnabarina with 17 samples.

Results

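The genes described here are 106 genes of *Pycnoporus cinnabarinus* CIRM-BRFM 137 whose transcripts were highest in cultures on Avicel, and they are called the Avicel genes below. They were taken from the 9167 genes of the deposited normalized table, which were in turn drawn from 10442 gene models in the count table. A normalized count is the number of reads of a gene in a library divided by 1 size factor of that library, so it can be compared between libraries but not between genes of different length. The members were chosen by their Avicel values. The mean of log2(normalized count + 1) was taken in each group, and a gene was kept when its Avicel mean was at least 6 and at least 1 above the mean of each other group. Its wheat straw mean also had to lie less than 1 above the highest of aspen, pine, xylan-galactomannan and maltose, and 5 protein IDs were left out by name. Every difference between Avicel and another group is therefore a description and not a test.

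Mycelium of this white-rot fungus was collected after 3 days of liquid culture on 6 carbon sources, and poly-A RNA was sequenced in 17 libraries. There were 2 libraries of Avicel, numbered 1 and 3, and 3 libraries each of maltose, aspen wood, pine wood, wheat straw and xylan-galactomannan, a mixture of these 2 kinds of hemicellulose. Maltose was given at 20 g/l as the control, while the labels put 2.5 g/l of it beside 15 g/l of substrate in every other medium, so substrate and maltose concentration differ together in each comparison with maltose. The study's text calls each substrate the sole source of carbon, and this difference between the sources was not resolved. All groups were the same strain, and the study describes independent cultures in triplicate, without naming xylan-galactomannan among them. Library totals ranged from 10668073 to 16176027 counts.

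Avicel is a purified microcrystalline cellulose with little of the hemicellulose and lignin that surround cellulose in wood and straw. White-rot fungi break cellulose down with secreted cellobiohydrolases, endoglucanases, beta-glucosidases and lytic polysaccharide monooxygenases, many of which carry a cellulose-binding module of family CBM1. Maltose is taken up and used readily, and in many fungi easily used sugars hold the genes for such enzymes at low transcript levels.

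Little is known of what the Avicel genes encode. The annotation used here was made for genes that the study picked out, on the plant substrates or in map nodes with the most secreted proteins. It covered 176 protein IDs, and 2 of the 106 Avicel genes were among them. Gene 2469 carries the annotation of an aspartic peptidase, an enzyme that cuts proteins with a pair of aspartate residues in its active site. Gene 6394 stands on the study's list of 9 genes that shared a map node with secreted cellulases, but has no predicted function there. The other 104 are named only by protein ID.

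Most genes of that cellulose list, the cellulases included, are not among the Avicel genes. Of the 9 genes on the cellulose list, 7 met the Avicel level and margin but passed the wheat straw limit, and 1, a predicted carboxypeptidase C (6605), was 0.85 lower on Avicel than on wheat straw on the log2 scale. The GH7 gene 5845, of a family that holds cellobiohydrolases, had a mean log2 level of 17.34 on Avicel, 12.25 on wheat straw and 7.83 on maltose. The GH1 gene 4378, of a family that holds beta-glucosidases, had 16.05, 12.93 and 7.38 in the same groups. The 5 IDs left out by name are all on this list, and their wheat straw means lay 2.00 to 3.16 above the highest of the other 4 groups, so the wheat straw limit would have left them out too. In all, 140 genes met the level and the margin. With wheat straw raised by at least 1 in 34 of them, the 106 genes are those left.

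The margin, the Avicel mean minus the highest other group mean, ranged from 1.00 to 4.86 on the log2 scale with a median of 1.44, a 2.71-fold difference. It was at least 1.5 for 47 genes, at least 2 for 19, at least 3 for 5 and at least 4 for 3. It was under 1.5 for the other 59, so that most Avicel genes stood a small factor above the next group and a few a large one. The Avicel means ran from 6.60 to 16.02, with a median of 12.18 against 9.25 over all genes. A mean above 12 was reached on Avicel by 56 Avicel genes and by 676 of all 9167 genes, and 41 Avicel genes were above 12 on Avicel and at most 12 in every other group. Since the genes were chosen by a high Avicel mean, their higher levels on Avicel than those of all genes follow in part from the choice.

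**Figure D1:**
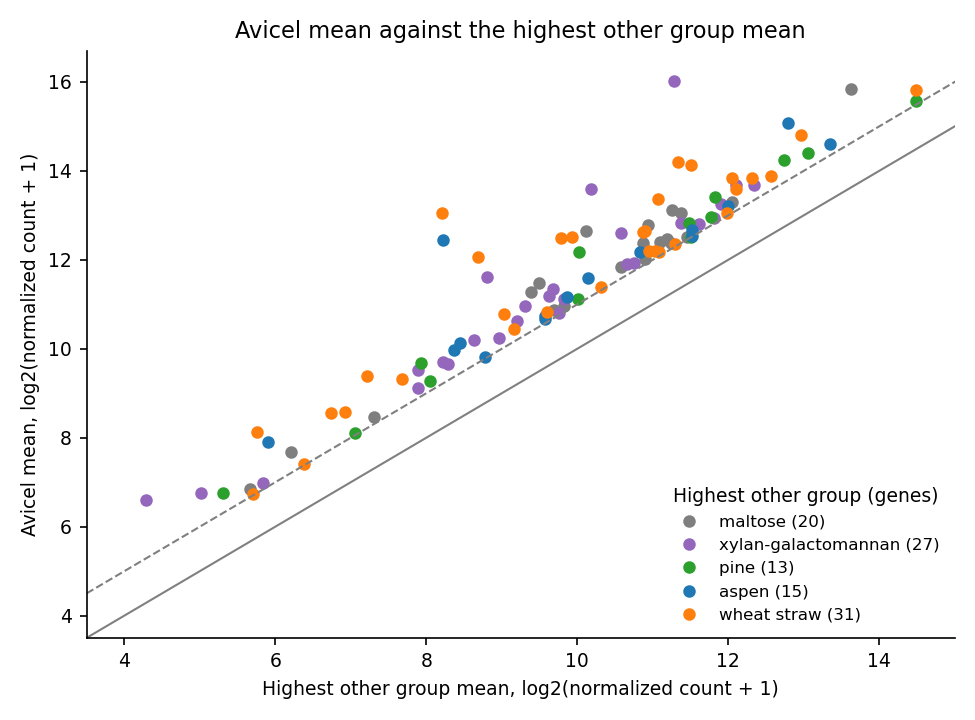
Each point is 1 of the 106 Avicel genes, with its highest mean among the 5 other groups on the x axis and its Avicel mean on the y axis, both as log2(normalized count + 1), and the colour names the other group. The solid line marks equal levels and the dashed line the margin of 1 that chose the genes, and most points lie close above the dashed line, with 5 genes at 3 or more above equality.

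No Avicel gene was silent in all 5 other groups. The highest other mean was 8 or more for 87 of them and from 4 to under 8 for 19, and it was under 4 for 0 of them. These classes rest on the highest of the 5 groups alone, and the shares over all genes were not computed. The next highest group was wheat straw for 31 genes, xylan-galactomannan for 27, maltose for 20, aspen for 15 and pine for 13. The 5 other group means lay within 0.5 of each other for 13 genes, within 1 for 42 and within 2 for 85, and they spanned at least 3 for 9. The difference from Avicel was thus set against a nearly even level for some genes and against a wide range for others.

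**Figure D2:**
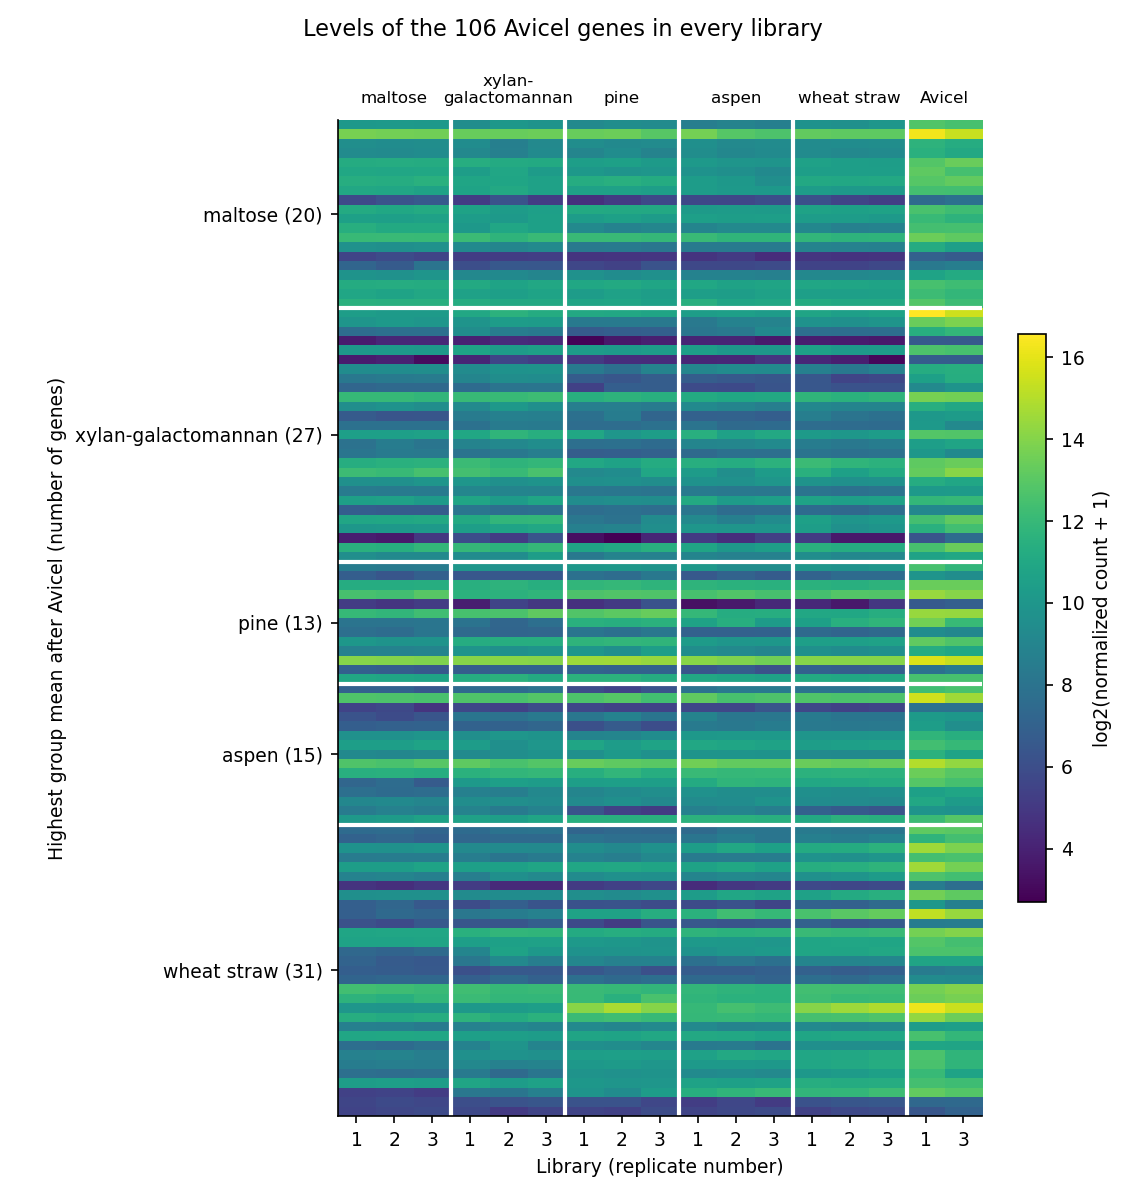
Each row is 1 of the 106 Avicel genes and each column 1 of the 17 libraries, coloured by log2(normalized count + 1), with the rows sorted by the group that has the highest mean after Avicel and then by margin. Both Avicel columns, at the right, are the brightest of their row throughout, while most rows keep a middle colour in the other 15 columns.

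Together the Avicel genes took 4.76 and 5.92% of all counts in the 2 Avicel libraries and from 1.07 to 1.66% in the 15 others. RNA was measured per culture, so these shares do not give the amount of RNA per cell. In all 106 genes both Avicel libraries lay above all 15 others, which 7.05% of all genes did, and the gap between the lower Avicel library and the highest other library ranged from 0.04 to 4.63 on the log2 scale with a median of 1.00. The gap was at least 1 for 53 genes. In an edgeR fit of all counts, 105 of the 106 were higher on Avicel against each of the 5 other groups with an adjusted p under 0.05 and by more than 1 on the log2 scale, against a background of 1.55% of genes tested. The exception was 8579, whose log2 fold change against xylan-galactomannan was 0.97 ± 0.24 (SE). These shares follow from the choice of the genes.

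Gene 9327 had the largest margin of the Avicel genes, 4.86, or 29.0-fold over wheat straw. Normalized counts of 9327 were 8836 and 8239 on Avicel and 332, 284 and 268 on wheat straw. They were 177, 273 and 274 on aspen, 150, 174 and 160 on pine, 190, 248 and 260 on xylan-galactomannan and 185, 191 and 146 on maltose. All 15 other libraries thus kept within a narrow band far under both Avicel libraries, which lay close to each other.

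Gene 2748 had the next largest margin, 4.74, and the highest Avicel mean of the Avicel genes, 16.02. Reads on Avicel gave it normalized counts of 96358 and 45761, and those on the next group were 2035, 3149 and 2412, on xylan-galactomannan. On maltose they were 1370, 1233 and 1235, on aspen 1371, 1462 and 1271, on pine 2151, 2076 and 1777 and on wheat straw 1754, 1457 and 1650. The gene alone took 0.597% of the counts in Avicel library 1 and 0.302% in library 3, and the libraries differed more from each other than those of any other group.

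Gene 863, with a margin of 4.23, was as sharp on Avicel but less even elsewhere. Normalized counts of 5110 and 6070 on Avicel stood against 246, 321 and 328 on aspen, 255, 244 and 283 on wheat straw and 174, 187 and 238 on xylan-galactomannan. They were lowest on pine, at 59.9, 44.2 and 76.2, and 127, 134 and 91.1 on maltose. Pine and aspen did not overlap in this gene, and neither did pine and maltose.

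The other 5 of the 8 Avicel genes with the largest margins kept this shape. Gene 7837 had normalized counts of 10661 and 14303 on Avicel against 926, 1306 and 1286 on xylan-galactomannan, the next group, and its margin was 3.41. Gene 562 had 3356 and 5377 on Avicel against 410, 369 and 455 on wheat straw, with a margin of 3.37. Gene 5276 had 24205 and 14444 on Avicel against 2294, 2416 and 3087 on wheat straw, with a margin of 2.86. In each of these genes the lower Avicel library was above every library of the next group. Gene 8994 had 2670 and 3694 on Avicel against 718, 374 and 334 on xylan-galactomannan, with a margin of 2.81, and its xylan-galactomannan library 1 stood above the other two of its group. Gene 3323 had 5524 and 6008 on Avicel against 870, 810 and 959 on wheat straw, with a margin of 2.71.

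**Figure D3:**
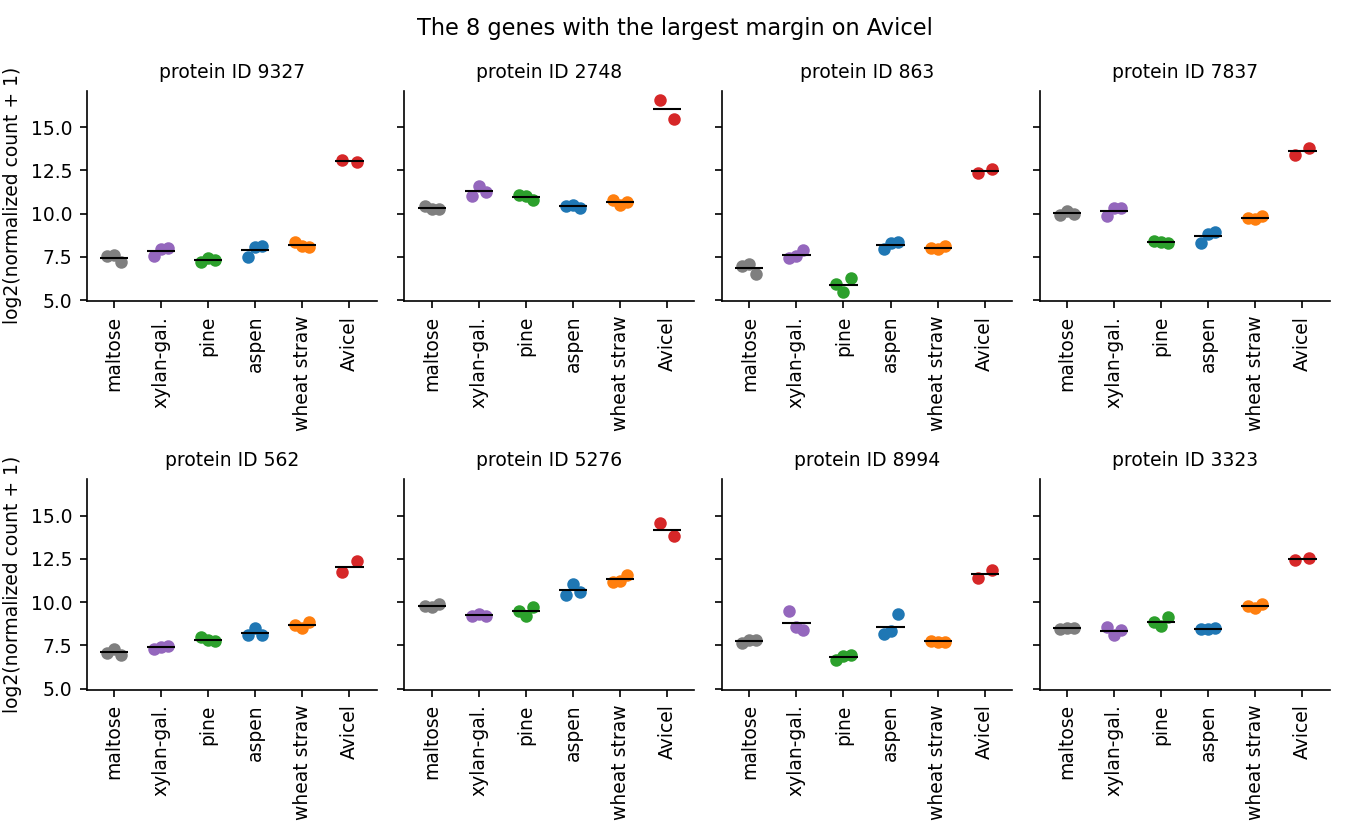
Each panel shows log2(normalized count + 1) of 1 of the 8 Avicel genes with the largest margins in each of the 17 libraries, with a line at each group mean, and xylan-gal. stands for xylan-galactomannan. The 2 Avicel libraries stand above all other libraries in each panel, and in 863 pine is the lowest group.

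The 8 Avicel genes with the most reads on Avicel were 2748, 8147, 6608, 8751, 4404, 6394, 2556 and 7671, ranked by normalized count and not per length. Gene 4404 was the most even of the Avicel genes on the other substrates, with the 5 group means 0.14 apart on the log2 scale and a margin of 2.27. Its normalized counts were 47828 and 24710 on Avicel, 6909, 6596 and 6091 on maltose, 6861, 6206 and 7502 on xylan-galactomannan, 6656, 7541 and 5300 on pine, 9127, 5963 and 6589 on aspen and 6901, 6460 and 6612 on wheat straw. Gene 8147 had 78849 and 43579 on Avicel against 13637, 12341 and 12148 on maltose, the next group, and a margin of 2.21. Both genes thus had many reads on every substrate, and Avicel library 1 had the higher value in each.

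Genes 8751, 2556 and 7671 had many reads on every substrate and smaller margins. Gene 8751 had normalized counts of 57979 and 41097 on Avicel against 23531, 24532 and 20786 on pine, with a margin of 1.09. Gene 2556 had 31313 and 20034 on Avicel against 12078, 9669 and 9754 on aspen, with a margin of 1.26. Gene 7671 had 22279 and 21261 on Avicel, 7003, 8476 and 10512 on pine and 2090, 1980 and 2599 on wheat straw, with a margin of 1.35. It was higher on pine than on aspen, where its values were 3872, 2531 and 2543.

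The comparisons that leave out Avicel describe the Avicel genes between the other substrates. The rule did not set these groups against each other, but their means enter the margin and the wheat straw limit through the highest of them, so the comparisons are not free of the choice of the genes. Maltose was set against aspen, pine and xylan-galactomannan, and pine was set against aspen. Each was tested with edgeR in a fit of all 17 libraries, with adjusted p-values over 9162 genes. Higher and lower below mean a change of over 1 on the log2 scale that also had an adjusted p under 0.05. The first 3 comparisons share the maltose libraries, so their counts are not independent of each other.

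On aspen, 19 of the 106 Avicel genes were higher than on maltose and 16 lower, which is 17.9 and 15.1% against 13.1 and 10% of all genes tested. The median log2 fold change was 0.05, against -0.02 over all genes. On pine, 20 were higher and 15 lower, 18.9 and 14.2% against 13.7 and 9.34%, and the medians were -0.10 and -0.03. The Avicel genes as a group did not move to one side on either wood, and both shares called were somewhat above those of all genes. For the genes higher on pine this depended on Avicel library 1. When the genes were chosen and the model fitted without it, 12 of 104 were higher on pine, a smaller share than the 13.7% above.

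On xylan-galactomannan, 15 Avicel genes were higher than on maltose and 1 was lower, 14.2 and 0.943% against a background of 6.97 and 3.2%. Leaving out 1 library of either group changed the 1 lower gene to 0 or 2. The median log2 fold change was 0.17 for the Avicel genes and -0.00 for all genes. Between pine and aspen, 8 Avicel genes were higher on pine and 12 lower, 7.55 and 11.3% against 7.8 and 4.33% of all genes. The share higher on pine was near that of all genes. On wheat straw, whose level the choice of the genes capped, 24 were higher than on maltose and 6 lower, against 9.53 and 6.13% of all genes tested, and nothing is read from this count. Without Avicel library 1 in the choice and the fit, 12 of 104 were lower there.

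The 34 genes high on both Avicel and wheat straw had another profile in the same fit. On aspen 28 of them were higher than on maltose and 0 lower, on pine 27 and 0, and on xylan-galactomannan 18 and 0. Their median log2 fold changes were 3.04, 3.21 and 1.06 in these comparisons, where those of the Avicel genes were 0.05, -0.10 and 0.17. Wheat straw was part of the choice of the 34 genes, and the difference between both sets was not tested.

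**Figure D4:**
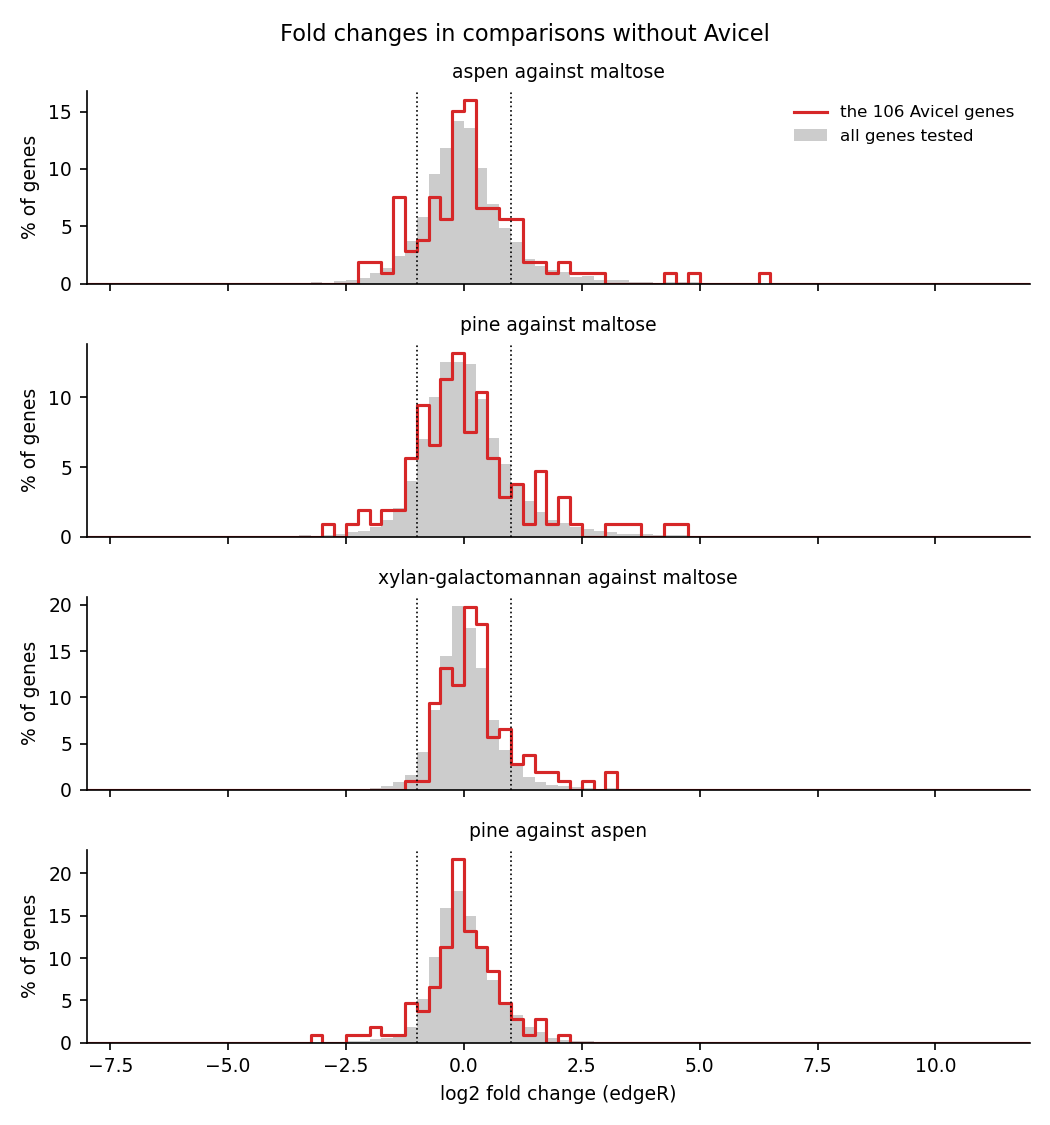
The share of genes in bins of log2 fold change is shown for all genes tested (grey) and for the 106 Avicel genes (red line) in the 4 comparisons without Avicel, with dotted lines at -1 and 1. The red and grey outlines share their centre near 0 on both woods, and the Avicel genes reach 6.39 on aspen against maltose and -3.11 on pine against aspen.

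Of the Avicel genes, 4545 rose most on aspen against maltose. The normalized counts of 4545 were 41.5, 44.1 and 35.6 on maltose, 297, 274 and 422 on xylan-galactomannan, 956, 687 and 1305 on pine, 2634, 3456 and 4286 on aspen, 3684, 3769 and 4817 on wheat straw and 9513 and 7491 on Avicel. Its 3 maltose libraries were the lowest of all 17, and no library of another substrate overlapped with them. The log2 fold change was 6.39 ± 0.29 (SE) on aspen with an adjusted p of 1.1e-11 in edgeR, 4.56 ± 0.27 on pine with 3.4e-10 and 3.00 ± 0.27 on xylan-galactomannan with 1.7e-07. Against aspen it fell by 1.83 on pine on the log2 scale. Its margin on Avicel was only 1.06, and its 5 other group means spanned 6.62, the widest span among the Avicel genes.

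Gene 6394, the gene on the cellulose list, showed a similar order. Per library, the normalized counts were 120, 175 and 151 on maltose, 294, 369 and 435 on xylan-galactomannan, 1659, 1653 and 2544 on pine and 3053, 5103 and 4111 on aspen. On wheat straw they were 6027, 8373 and 10108, and on Avicel 37889 and 21768. The 6 groups did not overlap in this gene. It rose by 4.76 ± 0.30 on the log2 scale on aspen against maltose (adjusted p = 4.5e-10, edgeR), by 3.67 ± 0.29 on pine and by 1.28 ± 0.27 on xylan-galactomannan (adjusted p = 7.9e-09 and 0.0012). It is an Avicel gene by a small amount, since its wheat straw mean lay 0.998 above aspen and the limit was 1.

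Gene 6608 was high on pine, wheat straw and Avicel. It had normalized counts of 17508, 28266 and 17071 on pine, 16730, 23635 and 30737 on wheat straw and 74449 and 45409 on Avicel. They were 4092, 5724 and 4680 on aspen, 1096, 1262 and 1439 on xylan-galactomannan and 1026, 966 and 1026 on maltose. Pine and aspen did not overlap. The log2 fold change was 4.34 ± 0.28 on pine against maltose (adjusted p = 7.5e-10, edgeR) and 2.10 ± 0.25 on pine against aspen (adjusted p = 4.6e-06), the largest rise of an Avicel gene in that comparison.

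Of the Avicel genes, 5717 rose most on xylan-galactomannan. On maltose it had normalized counts of 157, 195 and 103 and on xylan-galactomannan 1173, 1470 and 1314, without overlap, and the log2 fold change was 3.10 ± 0.21 (adjusted p = 5.1e-09, edgeR). On pine it had 1444, 1486 and 1399, on aspen 2309, 3431 and 3181, on wheat straw 2080, 2172 and 2434 and on Avicel 7688 and 5588. Maltose was the lowest group of this gene and overlapped with no other. Gene 10274 was the 1 Avicel gene that fell on xylan-galactomannan, by 1.10 ± 0.27 on the log2 scale (adjusted p = 0.0033). The gene had normalized counts of 64.6, 89.2 and 87.9 there and 149, 100 and 262 on maltose, a group with a wide spread, and 312 and 393 on Avicel. Without xylan-galactomannan library 1 the log2 fold change was -0.95 and without maltose library 3 it was -0.65, and neither was called.

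Other Avicel genes fell on wood against maltose. Gene 1905 had normalized counts of 4664, 4261 and 5943 on maltose, 1277, 740 and 1285 on aspen, 609, 699 and 1932 on pine and 9861 and 17663 on Avicel. Neither wood overlapped with maltose in this gene, although pine library 3 was well above the other pine libraries. The log2 fold change was -2.19 ± 0.38 on aspen (adjusted p = 7.2e-05, edgeR) and -2.24 ± 0.38 on pine (adjusted p = 5.9e-05). On wheat straw it had 2887, 1502 and 2212 and on xylan-galactomannan 5527, 4156 and 6127.

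Gene 1904, whose ID is next to 1905, had normalized counts of 1887, 1963 and 2152 on maltose, 598, 412 and 677 on aspen, 296, 246 and 661 on pine and 5441 and 9403 on Avicel. It fell by 2.36 ± 0.33 on the log2 scale on pine against maltose (adjusted p = 6.9e-06, edgeR) and by 1.85 ± 0.32 on aspen (adjusted p = 6.9e-05). As in 1905, pine library 3 and Avicel library 3 were the higher of their groups. Gene 6385 had 2652, 2199 and 2193 on maltose, 488, 599 and 606 on aspen, 609, 458 and 539 on pine and 5505 and 5757 on Avicel. It fell by 2.08 ± 0.18 on aspen (adjusted p = 2.7e-08) without overlap between the groups.

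Gene 1749 was low on both pine and wheat straw. Its normalized counts were 77.4, 41.5 and 34.2 on pine, 427, 497 and 395 on aspen, 356, 450 and 377 on maltose and 470, 329 and 456 on xylan-galactomannan. On wheat straw they were 128, 96.2 and 80.9, and on Avicel 921 and 878. The pine libraries were the lowest and did not overlap with any other group, but the highest of them, 77.4, was close to the lowest wheat straw library, 80.9. The log2 fold change was -3.11 ± 0.24 on pine against aspen (adjusted p = 4.0e-08, edgeR) and -2.98 ± 0.24 on pine against maltose (adjusted p = 9.0e-09), while aspen against maltose was 0.14 ± 0.19 and was not called.

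Gene 863, of the large Avicel margin, fell on pine against aspen by 2.32 ± 0.20 on the log2 scale (adjusted p = 1.6e-07, edgeR). Against maltose it rose by 1.32 ± 0.18 on aspen and fell by 1.00 ± 0.21 on pine on the log2 scale. The fall only just passed the limit and was not called under 14 of 27 other settings, at -0.83 without pine library 2 for example. Gene 184, a gene of low counts, was higher on pine than on aspen by 1.72 ± 0.49 (adjusted p = 0.0078). Its normalized counts were 25.0, 31.8 and 71.0 on pine and 9.20, 11.5 and 18.4 on aspen, so that the result rests on few reads and pine library 3 carries much of it. Without that library the log2 fold change was 1.12 and was no longer called. On Avicel it had 96.4 and 120.

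The peptidase gene 2469 rose on both woods. Its normalized counts were 1194, 1246 and 1661 on maltose, 3064, 2976 and 2797 on aspen, 2762, 2823 and 2934 on pine, 2178, 3083 and 2755 on wheat straw, 1594, 1428 and 1824 on xylan-galactomannan and 4559 and 7651 on Avicel. The log2 fold change against maltose was 1.08 ± 0.18 on aspen (adjusted p = 4.2e-05, edgeR) and 1.01 ± 0.18 on pine (adjusted p = 8.2e-05), and on xylan-galactomannan it was 0.22 ± 0.18 and was not called. These 2 calls stand close to the limit of 1. Aspen was at 1.00 without maltose library 1, and pine at 0.93 and 0.95 without maltose libraries 1 and 2 and at 0.98 without pine library 3, and none of these was called. This gene had the smallest margin on Avicel, 1.00.

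The genes nearest the limits differ little across them. Inside the margin of 1 were 2469 at 1.00 and 6458 at 1.02, and outside it 2303 at 0.98 and 4144 at 0.98. The Avicel levels nearest to 6 were 6.60 in 7836 and 6.73 in 6647, with 10052 at 5.41 as the only gene left out by the level alone. The wheat straw limit left in 6394 at 0.998 and 3359 at 0.93, and left out 346 at 1.03 and 748 at 1.04.

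Library 1 of Avicel was higher in 68 of the Avicel genes and library 3 in 38, that is 64.2% against 50.0% of the 8235 genes with an Avicel mean of at least 6. The median absolute difference between both libraries was 0.40 on the log2 scale for the Avicel genes and 0.19 for those genes. The 8235 genes include the Avicel genes and have lower levels, and the choice by a high Avicel mean itself favours genes that are high in 1 Avicel library. A difference above 1 was seen in 5 Avicel genes, 4.72% of them against 1.60%. The genes with the largest difference were 5399 and 8535 on the side of library 1, and 483 and 730 on the side of library 3.

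Gene 5399 had normalized counts of 12355 and 4275 in Avicel libraries 1 and 3, and its highest other library, on wheat straw, had 3451. Gene 8535 had 4254 and 1691 on Avicel, and 1074, 1260 and 1527 on wheat straw, so library 3 stood only just above the next group. Gene 483 had 82.3 and 191 on Avicel and 62.1, 35.3 and 80.3 on xylan-galactomannan, and here library 1 was the one near the next group. Gene 730 had 5805 and 10569 on Avicel against 3918, 3076 and 3855 on xylan-galactomannan. The spread of the Avicel genes over the libraries of a group had a median SD of 0.28 on Avicel and 0.12 to 0.23 in the other groups. For the 8235 genes with an Avicel mean of at least 6 it was 0.13 on Avicel and 0.09 to 0.21 in the other groups.

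Members were also chosen with 1 Avicel library and looked at in the other. With library 1 alone the rule took 125 genes, and 74 of them, or 59.2%, stood at least 1 above every other group mean in library 3, where 1.66% of all genes at that level did. With library 3 alone it took 104 genes, and 74 of them, or 71.2%, did so in library 1, against 1.97% of genes. The other group means were the same in both steps, so low values in them count in both. These shares follow in part from the choice of the genes and are a description, not a test. Of the genes chosen, 95 and 85 belonged to the 106 Avicel genes.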

How the data were processed

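Poly-A RNA of mycelium from 17 cultures was sequenced as paired-end Illumina reads. The first deposited table has raw counts, for which the authors filtered reads by quality, aligned them with TopHat2 and counted them per gene model with HTSeq, and the submitters' processing notes also name DESeq 1.5. Other tool versions, the genome build, the strand setting and the handling of multi-mapped reads were also not given in the sources used, and near-identical or overlapping genes are therefore uncertain. The other deposited table is a normalized signal, which the authors made by dividing each library by 1 size factor. The lowest total count of a gene in it was 85. It holds 9167 of the 10442 gene models, and those left out held 0.0035% of all counts. All columns were matched to a library by their labels.

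Members were found with pandas 2.3.3 (Python 3.11.15) on log2(normalized count + 1). Counts as deposited were fitted with edgeR 4.0.16 in R 4.3.3 (filterByExpr, TMM factors, a quasi-likelihood test with group as the only term over all 17 libraries, Benjamini-Hochberg adjustment over 9162 genes). Calls needed an adjusted p under 0.05 and a change of more than 1 on the log2 scale, values that the study also gives. The study names both FDR and Bonferroni correction, and only Benjamini-Hochberg was used here for the main calls. The SE was derived from the fold change and its F statistic. The code was tested on simulated counts. Replicate numbers of different groups were not used as pairs. Replicates of a group all differed by more than the sampling noise. Where the study does not say that cultures were separate, p-values measure only the spread between these libraries.

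The genes named were those with a predicted function, the 8 with the highest Avicel mean, the 8 with the largest margin, those nearest each limit, the 2 called genes at each end of the fold changes of a tested comparison, and the 2 on each side with the largest difference between the Avicel libraries. Some genes of the cellulose list were named as well. The other observations also name genes picked for protein IDs close to those of other Avicel genes. The members, lists and tests were chosen with earlier results of these data known. Alternatives were the scaling (RLE, upper quartile), DESeq2 1.42.0, no filter, Bonferroni adjustment, no fold threshold, only the 2 groups compared, a replicate block, leaving out each library, and other limits in the choice of the genes. The protein IDs matched 0 of 10441 entries of the RefSeq gene table, so no gene names, coordinates or sequences are given. Avicel library 2 was not analysed here.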

Additional observations from a re-analysis of the deposited data

How the results depend on the processing

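The number of Avicel genes stayed within 1.5 times of 106 under the other pseudocounts, scalings, levels and margins, between 78 with a margin of 1.2 and 154 with a margin of 0.8, and between 100 and 125 without 1 library. With only the lowest Avicel library above the highest other library, and no margin, it was 599. Members called under Bonferroni adjustment were 23 on pine against maltose and 11 on pine against aspen. With no fold threshold, 61 were called on aspen, 70 on pine, 43 on xylan-galactomannan and 57 on wheat straw against maltose, and 46 on pine against aspen. These counts change because the threshold does. All other totals of calls stayed within 1.5 times of those reported. Split by direction, the 1 gene lower on xylan-galactomannan became 13 with no fold threshold and 0 or 2 under 8 other settings. Under Bonferroni adjustment and with no fold threshold, the genes lower became 9 and 30 on aspen, 7 and 37 on pine and 6 and 23 on pine against aspen, and those higher on pine against aspen 5 and 23. With no fold threshold, the genes higher became 31 on aspen, 33 on pine and 30 on xylan-galactomannan, and those lower on wheat straw 21. With a replicate block, 34, 36 and 16 members were called on aspen, pine and xylan-galactomannan against maltose and 20 on pine against aspen. The correlation between libraries of the same number ran from -0.13 to 0.28 in the comparisons without Avicel and wheat straw. It was highest for the libraries numbered 1, at 0.28 between pine and aspen and 0.25 between aspen and maltose. Whether the numbers stand for shared batches was not tested and cannot be told from these values. Of the calls given for named genes, 31 were followed through these settings, and none of the 31 changed direction. The calls of genes named only for protein IDs close to those of other Avicel genes were not followed. Under Bonferroni adjustment 11 of the 31 calls were lost, and under the other settings 7. The 7 were those of 863 and 2469 on wood against maltose, 184, 5717 and 6394 on pine against aspen and 10274. Gene 5717 was at -0.95 and 6394 at -0.90 without aspen library 2. With 2 Avicel libraries, the Avicel mean and its spread rest on 1 difference, and genes of low counts such as 184 and 483 have few reads behind each value.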

Other observations

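Some Avicel genes have protein IDs close to those of other Avicel genes. Within 3 numbers of another Avicel gene were 16 of the 106, or 15.1%, and 6.06% of the 9061 other genes lay that close to an Avicel gene. Whether neighbouring IDs stand for neighbouring genes is not given in the sources used here, and the share was not tested. The 16 fall into 6 runs, of which the longest holds 3991, 3993, 3995, 3996 and 3999. Gene 3991 had normalized counts of 7547 and 9468 on Avicel and 2603, 2524 and 2871 on maltose, the next group. Gene 3999 had 3252 and 2464 on Avicel and 737, 692 and 733 on maltose, and its 5 other group means lay within 0.38 on the log2 scale. The 5 genes of this run had margins from 1.14 to 1.97. Gene 3991 was lower on aspen than on maltose by a log2 fold change of -1.37 ± 0.16 (adjusted p = 7.1e-07, edgeR), and 3996 was lower on pine by -1.07 ± 0.20 (adjusted p = 0.0002).

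The pair 4376 and 4377 comes just before 4378, the GH1 gene of the cellulose list, in number. Gene 4376 had normalized counts of 1751 and 1747 on Avicel, 512, 524 and 532 on wheat straw, 545, 446 and 460 on pine, 223, 289 and 227 on aspen, 296, 608 and 392 on xylan-galactomannan and 138, 101 and 91.1 on maltose. Gene 4377 had 1864 and 1773 on Avicel, 769, 761 and 789 on wheat straw, 774, 731 and 526 on pine, 326, 358 and 254 on aspen, 453, 940 and 500 on xylan-galactomannan and 205, 188 and 238 on maltose. Both were lowest on maltose and next to highest on wheat straw. On pine against maltose the log2 fold change was 2.09 ± 0.22 for 4376 and 1.64 ± 0.23 for 4377, and on xylan-galactomannan 1.95 ± 0.22 and 1.57 ± 0.22, all called by edgeR. The pair 7836 and 7837 differed in level. Gene 7836, the lowest of the Avicel genes on Avicel, had 96.4 and 95.3 there and at most 21.4 in any other library, with a margin of 2.32, and 7837 had a margin of 3.41.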
